A study of Mus musculus with 37 samples.

Results

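Bone marrow-derived macrophages that had been cultured for 7 days with fibroblasts from fat were compared with macrophages cultured for 7 days with fibroblasts from the mammary fat pad. Members were taken by their labels: 8 libraries, 4 with fat fibroblasts and 4 with mammary fibroblasts, of 16 macrophage libraries and 37 libraries in all. All cells came from female BALB/c mice aged 8 weeks. Fat fibroblasts came from mesometrial fat, the depot beside the uterus, and mammary fibroblasts from the mammary gland's own fat pad. For both, tissue of several females was pooled for each biological replicate, and cells carrying CD45 or EpCAM were removed with beads. Macrophages were grown from bone marrow in medium conditioned by L929 cells, a fibroblast line that releases colony-stimulating factor 1, and were mixed with fibroblasts on collagen-coated plates. At day 7 they were sorted as live F4/80+ CD11b+ cells, and their mRNA was sequenced from the 3′ end. The other macrophage libraries, 4 with lung fibroblasts and 4 of macrophages alone at day 0, entered the same statistical fit and are given here for level. The labels number the replicates but do not say which cultures shared a batch of macrophages.

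Macrophages in connective tissue live beside fibroblasts, which supply colony-stimulating factor 1 and receive growth factors in return. Macrophages answer cytokines, lipids, cell contact and stress with a short burst of immediate early genes, whose mRNAs appear without new protein synthesis and decay fast. They also release chemokines: Cxcl1, Cxcl2 and Cxcl3 mainly recruit neutrophils, and the CC ligands named here mainly recruit monocytes and eosinophils. The comparison asks how macrophages differ with the organ of the fibroblasts beside them.

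Library totals lay between 4173149 and 5225982 counts with fat fibroblasts and between 4622929 and 6223115 counts with mammary fibroblasts, so that 3 counts in 1 library were worth between 0.479 and 0.711 on the counts-per-million scale (CPM). The sort genes did not pass the test: Adgre1, which encodes F4/80, averaged 1084 ± 149 CPM with fat and 947 ± 149 CPM with mammary fibroblasts (SD, n = 4 each, adjusted p = 0.574), and Itgam, which encodes CD11b, averaged 1045 ± 127 CPM with fat and 987 ± 69.8 CPM with mammary fibroblasts (SD, n = 4 each, adjusted p = 0.769). All 12 macrophage markers examined were measured; 0 of them passed by edgeR or by DESeq2, and 2 had an unadjusted p under 0.05. Of markers of other cells that a gate could hold, 1 of adipocytes, 3 of endothelium, 2 of neutrophils and 1 of lymphocytes were tested. Of these, 0 passed by edgeR or DESeq2 and 0 had an unadjusted p under 0.05. Each of these lists holds 10 genes, most of which were not measured. Of mesothelial, epithelial, dendritic and mast cell markers 0 were tested. The measured mesothelial markers, given below, and the 1 measured mast cell marker, at no more than 1.66 CPM, lay higher with fat. Mammary libraries 3 and 4 stood apart from the other 6. On the first principal component, which held 47.2% of the variance, they scored 39.7 and 43.7, against -22.5, -5.86, -24.9 and -23.9 for fat libraries 1 to 4 and -9.46 and 3.28 for mammary libraries 1 and 2. In 46 tested genes both were more than 5 times below the lowest of the other 6 libraries, and in 0 genes more than 5 times above the highest, among genes with at least 5 CPM on the higher side. Of those 46 genes, 0 passed the test between fat and mammary. They were picked by a gap within the mammary group, which made a pass unlikely, so this count says little about the other calls. Named calls that did not pass without mammary libraries 3 and 4 are therefore given with that adjusted p.

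**Figure D1:**
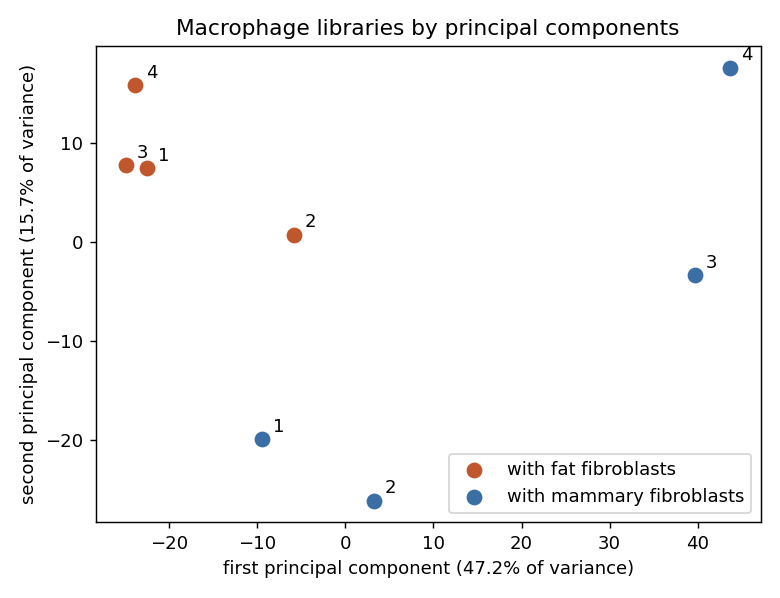
Principal components of the 8 macrophage libraries from log2 CPM, with the replicate number beside each point. Mammary libraries 3 and 4 lie at 39.7 and 43.7 on the horizontal axis, and fat libraries 1, 3 and 4 lie between -24.9 and -22.5.

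Of 10295 genes tested, 172 were higher and 108 lower in macrophages with fat fibroblasts than in those with mammary fibroblasts, at an adjusted p under 0.05. This is 2.72% of the genes tested, 1.67% higher and 1.05% lower, and 1573 genes had an unadjusted p under 0.05. In 263 of the 280 the 4 fat values did not overlap the 4 mammary values, as in 9.62% of all genes tested. Without mammary libraries 3 and 4, 150 genes passed, of which 124 were among the 280 (92 higher and 32 lower). Leaving out 1 library at a time gave between 145 genes (without fat library 4) and 364 genes (without mammary library 1). It gave 149 without fat library 1, 184 without fat library 3 and 159 without mammary library 3. In bulk RNA, a lower level can come from fewer cells that carry the transcript or from less of it per cell, and these cannot be told apart. Leakage of partner RNA was followed with 18 measured fibroblast marker genes. Their mean log2 level was 4.03 (3.73 to 4.56) with fat and 4.56 (4.40 to 4.75) with mammary fibroblasts, against 3.18 with lung fibroblasts and 0.32 at day 0. Of the 17 tested, 0 were higher and 3 were lower with fat fibroblasts. Set against the co-cultured fibroblasts themselves, that level was equal to a share of 1.41 ± 0.33% fibroblast RNA with fat and 1.09 ± 0.131% with mammary fibroblasts (SD, n = 4 each).

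Of the gene lists examined, the immediate early genes had the largest share of members that passed. Of 26 tested, 20 rose with fat fibroblasts and 0 fell, where 1.67% of all tested genes rose. All 26 had a log2 difference above 0, with a median of 1.11, against a median of -0.01 over all genes tested. In 20 of the 26 the 4 fat values lay above the 4 mammary values, as in 5.08% of all genes tested. Averaged over the 26 genes, the log2 level was 6.51, 6.45, 6.26 and 6.59 in fat libraries 1 to 4 and 5.28, 5.07, 5.12 and 5.69 in mammary libraries 1 to 4. The corresponding mean was 6.19 with lung fibroblasts and 5.13 at day 0. On this average, the fat and lung co-cultures lay high and the mammary co-culture lay near day 0. Single genes differed between the mammary co-culture and day 0 in both directions. Ier3 averaged 474 CPM with mammary fibroblasts and 70.2 CPM at day 0, and Egr2 averaged 7.78 CPM with mammary fibroblasts and 29.7 CPM at day 0. The day 0 cells also differ from the co-cultures in time. With mammary libraries 3 and 4 left out, 16 of 27 tested members rose and 0 fell, with a median of 1.29; Jun, Klf4, Egr3 and Fosl2 no longer passed (adjusted p = 0.0774, 0.0862, 0.0684 and 0.28).

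The promoters of 4 of these 20 genes are shown because each holds a site through which immediate early genes are known to be switched on: the cAMP response element, bound by CREB and ATF proteins, or the CArG box, bound by serum response factor. The windows run from 250 bases before to 50 bases after the annotated start and come from RefSeq on GRCm38.p6, 5′ to 3′ on the strand of the gene. Capitals mark the match. Dusp1 lies at chr17:26508423-26508722 on the minus strand, with the element starting 143 bases before the start. Btg2 lies at chr1:134079106-134079405 on the minus strand, with the element starting 166 bases before the start. Dusp5 lies at chr19:53528895-53529194 on the plus strand, with CArG boxes starting 82 and 72 bases before the start. Zfp36 lies at chr7:28379179-28379478 on the minus strand, with a CArG box starting 58 bases before the start.
Dusp1: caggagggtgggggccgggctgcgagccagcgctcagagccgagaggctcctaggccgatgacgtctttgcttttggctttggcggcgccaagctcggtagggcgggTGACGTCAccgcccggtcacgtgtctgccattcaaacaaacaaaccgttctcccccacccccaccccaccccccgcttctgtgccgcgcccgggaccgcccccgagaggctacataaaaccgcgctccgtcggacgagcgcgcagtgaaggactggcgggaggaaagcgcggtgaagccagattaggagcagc
Btg2: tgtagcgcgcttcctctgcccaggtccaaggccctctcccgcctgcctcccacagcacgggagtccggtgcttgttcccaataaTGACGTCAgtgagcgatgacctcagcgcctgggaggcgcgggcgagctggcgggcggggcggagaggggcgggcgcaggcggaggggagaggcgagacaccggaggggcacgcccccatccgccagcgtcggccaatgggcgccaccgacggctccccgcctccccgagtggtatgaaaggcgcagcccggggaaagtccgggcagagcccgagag
Dusp5: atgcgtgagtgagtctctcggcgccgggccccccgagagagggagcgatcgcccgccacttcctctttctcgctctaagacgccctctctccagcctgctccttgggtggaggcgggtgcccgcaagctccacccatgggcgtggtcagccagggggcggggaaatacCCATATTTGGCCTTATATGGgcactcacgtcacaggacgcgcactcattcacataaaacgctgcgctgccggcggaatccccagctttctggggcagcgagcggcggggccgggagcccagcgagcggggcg
Zfp36: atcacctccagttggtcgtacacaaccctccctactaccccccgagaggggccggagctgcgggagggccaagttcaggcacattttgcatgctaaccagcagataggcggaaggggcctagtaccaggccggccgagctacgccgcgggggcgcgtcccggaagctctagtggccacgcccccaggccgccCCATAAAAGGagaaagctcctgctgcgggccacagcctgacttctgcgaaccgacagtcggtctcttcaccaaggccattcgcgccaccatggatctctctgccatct
Windows were given for 17 of the 20 genes. The exact cAMP response element TGACGTCA was in those of 2 (11.8%, Btg2 and Dusp1), against 3.75% of the tested genes with a window and 2.03% of all 27025 genes with one. It was also in 1 (20%, Maff) of the 5 immediate early genes with a window that did not pass. The CArG box, a search added after the data had been seen, was in 3 (17.6%, Dusp5, Egr2 and Zfp36), against 1.57% of the tested genes and 1.81% of all. The AP-1 site TGACTCA was in 0 of the 17, against 4.44% of the tested genes and 5.95% of all. Both strands were searched. A match describes the letters in the window and does not show that a protein was bound.

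Among the transcription factors, Fos, a subunit of AP-1, had 533, 571, 515 and 565 CPM with fat fibroblasts and 221, 211, 172 and 319 CPM with mammary fibroblasts. The groups were separated by a wide gap, with a log2 difference of 1.24 (SE 0.16, adjusted p = 9.24e-05). Atf3, a stress-induced repressor of the ATF family, had 833, 909, 580 and 922 CPM with fat and 257, 261, 240 and 264 CPM with mammary fibroblasts, a log2 difference of 1.67 (SE 0.15, adjusted p = 1.94e-06). The 4 mammary values of Atf3 hardly varied, and its level at day 0 was 474 ± 65.9 CPM (SD, n = 4), between the co-cultures. Egr1, a zinc finger factor induced by growth factor signalling, had 196, 199, 130 and 188 CPM with fat and 37.2, 23.3, 29.3 and 70.3 CPM with mammary fibroblasts. Its log2 difference was 2.15 (SE 0.31, adjusted p = 0.00118). The largest log2 differences among the factors were those of Fosb, an AP-1 subunit, at 2.65, and of Nr4a1, an orphan nuclear receptor, at 2.26. Junb, Klf2, Klf4, Egr2, Egr3, Fosl2, Klf6 and Jun also rose, with log2 differences between 1.42 for Egr2 and 0.44 for Jun. Junb overlaps Prdx2 on the opposite strand at its 3′ end, so its counts are uncertain if strand was not used.

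Regulators that end such signals rose as well. Dusp1, a phosphatase that inactivates the stress-activated kinases p38 and JNK, had 910, 716, 690 and 845 CPM with fat and 215, 162, 148 and 261 CPM with mammary fibroblasts. Its log2 difference was 2.01 (SE 0.17, adjusted p = 6.43e-07), one of the smallest adjusted p values in the comparison. Dusp5, a phosphatase for nuclear ERK, averaged 13.2 ± 3.65 CPM with fat and 1.69 ± 0.43 CPM with mammary fibroblasts (SD, n = 4 each), a log2 difference of 2.95. Dusp2, another MAP kinase phosphatase, differed by 1.70. Zfp36, which binds AU-rich elements in cytokine mRNAs and speeds their decay, averaged 519 ± 70.4 CPM with fat and 243 ± 49.3 CPM with mammary fibroblasts (SD, n = 4 each), a log2 difference of 1.10. Btg2, which recruits the deadenylase complex, averaged 146 ± 22.4 CPM with fat and 67.8 ± 18.5 CPM with mammary fibroblasts (SD, n = 4 each), also a log2 difference of 1.10. The 6 tested members that did not pass were Ier3, Jund, Nr4a2, Myc, Maff and Gadd45b. The most abundant of them, Ier3, a survival gene, averaged 483 ± 68.6 CPM with fat and 474 ± 128 CPM with mammary fibroblasts (SD, n = 4 each, adjusted p = 0.956). Of the 20 that rose, 20 had a higher mean with lung than with mammary fibroblasts. Of the same 20, 19 had a higher mean with fat fibroblasts than at day 0, and 7 a lower mean with mammary fibroblasts than at day 0. These genes were picked for high fat and low mammary values, which favours such counts. The counts therefore say little about the lung and day 0 levels.

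**Figure D2:**
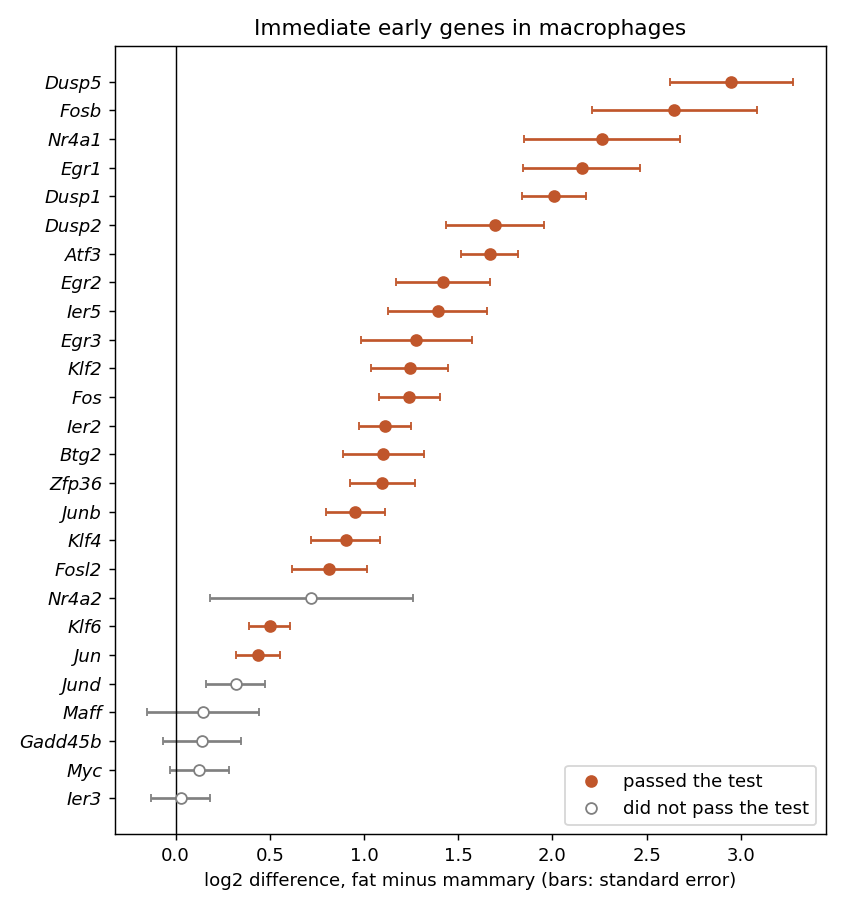
Log2 difference, fat minus mammary, of the 26 immediate early genes tested, with standard errors. Filled points passed the test (20 genes) and open points did not (6 genes); all 26 lie right of 0, from 0.03 for Ier3 to 2.95 for Dusp5.

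Heat shock chaperones, which many stresses also induce, gave 2 higher and 0 lower of 16 tested, where 1.67% of all tested genes were higher. Their median log2 difference was 0.06. The 2 were Hspa1a, an inducible HSP70, at 1.41 (SE 0.34, adjusted p = 0.0362), and the small chaperone Hspb1 at 1.22 (SE 0.32, adjusted p = 0.0417). Neither passed without mammary libraries 3 and 4 (adjusted p = 0.0721 for Hspa1a and 0.347 for Hspb1). Hspa1a has a near-identical copy, Hspa1b, so the split of reads between them is uncertain. Hspb1 averaged 4.28 CPM with fat and 1.79 CPM with mammary fibroblasts, against 569 CPM in fat fibroblast partners and 137 CPM in mammary partners. The measured fibroblast share would carry 8.03 CPM with fat, above the level measured there. With mammary fibroblasts the share would carry less than the level measured there. With the share subtracted, 1 of 15 tested chaperones was higher. Genes of the unfolded protein and integrated stress responses gave 0 calls in either direction of 27 tested, by edgeR and by DESeq2, and 1 had an unadjusted p under 0.05.

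Among chemokine ligands, of 9 CXC ligands tested, 5 rose with fat fibroblasts and 0 fell (median log2 difference 1.44). Of 9 CC ligands, 0 rose and 2 fell (median -0.50). Among all tested genes, 1.67% rose and 1.05% fell. The classes were not tested against each other. Cxcl1, a neutrophil attractant, had 108, 119, 95.3 and 126 CPM with fat and 35.4, 15.8, 22.3 and 40.8 CPM with mammary fibroblasts, a log2 difference of 1.97 (SE 0.23, adjusted p = 8.01e-05). Cxcl2, with the same receptor, had 287, 407, 241 and 353 CPM with fat and 108, 87.5, 126 and 152 CPM with mammary fibroblasts, a log2 difference of 1.44 (SE 0.18, adjusted p = 8.16e-05). Every fat library exceeded every mammary library for both. Cxcl3 (log2 difference 2.00) and Ppbp (3.10), which encodes the platelet chemokine precursor, moved the same way from levels of at most 7.34 CPM; Ppbp summed to 88 counts over the fat and 12 counts over the mammary libraries. The 4 genes lie together on chromosome 5 of GRCm38 (mm10), from Ppbp at 90768518-90770063 to Cxcl2 at 90903871-90905938. A neighbour in that stretch, Pf4, platelet factor 4, averaged 245 CPM with fat and 282 CPM with mammary fibroblasts and did not pass (adjusted p = 0.556). Cxcl14, on chromosome 13, averaged 539 ± 50.8 CPM with fat and 196 ± 82.5 CPM with mammary fibroblasts (SD, n = 4 each, adjusted p = 0.0127), but did not pass without mammary libraries 3 and 4 (adjusted p = 0.0947).

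Ccl8, an attractant of monocytes and, in mouse, a ligand of Ccr8, had 12, 9.4, 11.1 and 12.5 CPM with fat fibroblasts and 43.1, 77.3, 118 and 92.8 CPM with mammary fibroblasts. The fat libraries were close to one another and far below the mammary ones, with a log2 difference of -2.87 (SE 0.32, adjusted p = 8.16e-05). Ccl12, a mouse ligand of Ccr2, had 24.8, 32.6, 25.8 and 24.5 CPM with fat and 88.7, 83.3, 120 and 73.3 CPM with mammary fibroblasts, a log2 difference of -1.76 (SE 0.24, adjusted p = 0.000477). Both held without mammary libraries 3 and 4 (adjusted p = 0.000319 for Ccl8 and 0.00214 for Ccl12). They are near neighbours on chromosome 11, Ccl12 at 82101845-82103400 and Ccl8 at 82115185-82116799. Upstream in the same stretch, Ccl7 at 82045712-82047525, a monocyte attractant, averaged 59.4 ± 24.3 CPM with fat and 156 ± 22.6 CPM with mammary fibroblasts (SD, n = 4 each) and did not pass (log2 difference -1.39, adjusted p = 0.0782). Ccl2 at 82035571-82037453, the main Ccr2 ligand, averaged 283 ± 104 CPM with fat and 401 ± 69.8 CPM with mammary fibroblasts (SD, n = 4 each), with overlapping values (adjusted p = 0.637). Both calls were of genes near absent at day 0: Ccl8 averaged 0.658 CPM and Ccl12 averaged 3.94 CPM there, and with lung fibroblasts they averaged 124 and 60.7 CPM.

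Receptors for chemoattractants moved in both directions, 3 higher and 3 lower of 12 tested, against 1.67% higher and 1.05% lower of all tested genes. Without mammary libraries 3 and 4, 1 was higher and 1 lower of the 12. Ccrl2, a decoy receptor that presents chemerin, averaged 88.8 ± 7.22 CPM with fat and 35.3 ± 6.4 CPM with mammary fibroblasts (SD, n = 4 each, log2 difference 1.33, adjusted p = 0.00656). Cx3cr1, the fractalkine receptor, and C5ar1, the receptor of complement C5a, each rose by 0.62 on the log2 scale (adjusted p = 0.0436 for Cx3cr1 and 0.034 for C5ar1). Neither passed without mammary libraries 3 and 4 (adjusted p = 0.0721 for Cx3cr1 and 0.174 for C5ar1), and the fat and mammary values of Cx3cr1 overlapped. Ccr1, a receptor for several CC ligands, had 56.2, 143, 91 and 57.3 CPM with fat and 317, 204, 188 and 171 CPM with mammary fibroblasts (log2 difference -1.34, adjusted p = 0.0362, and 0.0489 without mammary libraries 3 and 4). Its call was lost in 6 of the 8 fits that left out 1 library (without fat library 1, 3 or 4 or mammary library 1, 2 or 3), with adjusted p up to 0.13, and with only the 8 libraries fitted (0.112). The formyl peptide receptors Fpr1 and Fpr2 fell by 2.09 and 1.33 on the log2 scale. Their levels were 3.6 CPM with fat and 15.6 CPM with mammary fibroblasts for Fpr1 and 5.67 CPM with fat and 14.4 CPM with mammary fibroblasts for Fpr2. Without mammary libraries 3 and 4 the adjusted p was 0.144 for Fpr1 and 0.187 for Fpr2.

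**Figure D3:**
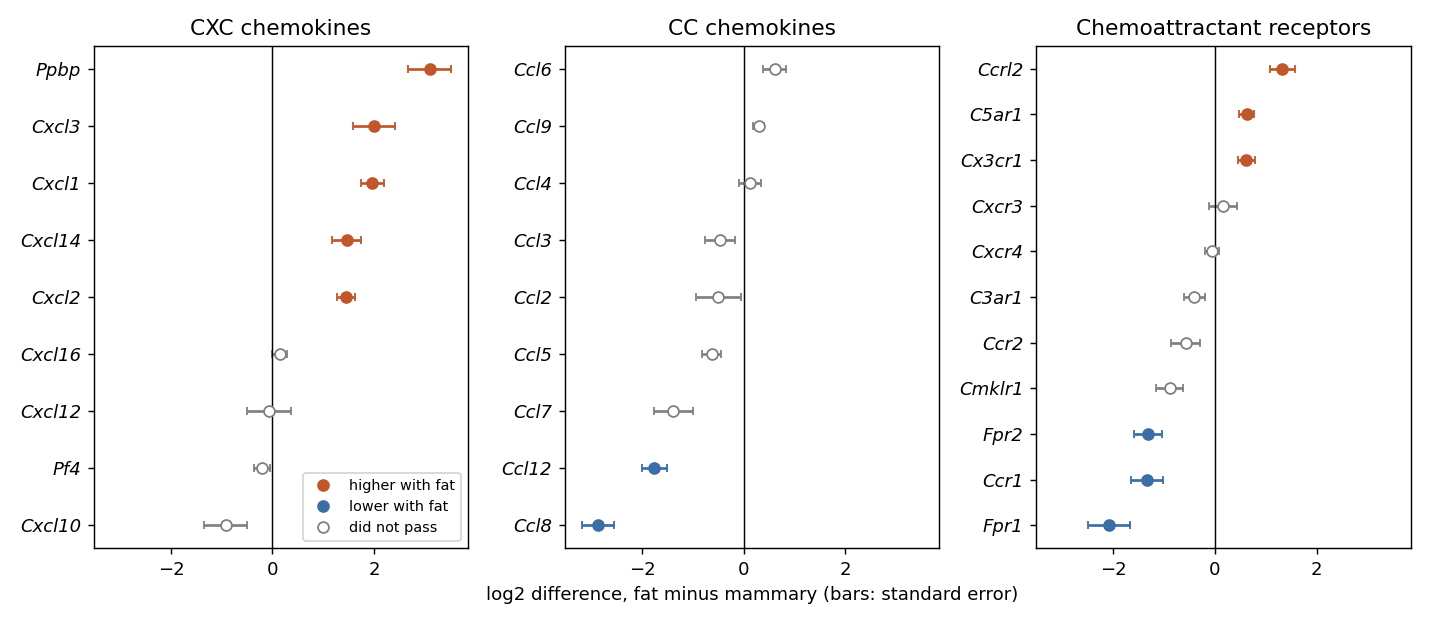
Log2 difference, fat minus mammary, with standard errors for CXC ligands (left), CC ligands (middle) and chemoattractant receptors (right) that were tested. Filled points passed the test: 5 CXC ligands to the right of 0, 2 CC ligands to the left, and 3 receptors on either side.

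Of 11 tested cytokine and cytokine feedback genes other than chemokines, Osm rose and Tnf fell, 5 had an unadjusted p under 0.05, and the median log2 difference was -0.36. Among all tested genes, 1.67% rose and 1.05% fell. Tnf, the inflammatory cytokine tumour necrosis factor, had 53.9, 68.3, 64 and 42.7 CPM with fat and 151, 159, 157 and 107 CPM with mammary fibroblasts. All fat values lay below all mammary values, with a log2 difference of -1.33 (SE 0.22, adjusted p = 0.00206), and the level at day 0, 94.8 ± 22.1 CPM (SD, n = 4), lay between them. Osm, oncostatin M, an interleukin 6 family cytokine that acts on fibroblasts, had 63.5, 66.9, 41.7 and 81.4 CPM with fat and 27.3, 20, 18.8 and 29.3 CPM with mammary fibroblasts (log2 difference 1.41, SE 0.22, adjusted p = 0.00124). Both held without mammary libraries 3 and 4. Il1b, interleukin 1 beta, averaged 105 ± 21.5 CPM with fat and 53.5 ± 15.6 CPM with mammary fibroblasts (SD, n = 4 each) without overlap, and did not pass (log2 difference 0.97, adjusted p = 0.0667). In the list of the interleukin 1 pathway and Trem1, 0 rose and 1 of 17 fell, Casp4, an inflammatory caspase, at -0.71 (adjusted p = 0.0361, and 0.301 without mammary libraries 3 and 4). The direction of this count was not stable. Without mammary libraries 3 and 4, or with only the 8 libraries fitted, 1 rose and 0 fell. With DESeq2 or the replicate block, 1 rose and 1 fell.

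Growth factors gave 2 calls of 16 tested, both higher, Osm and Bmp2, where 1.67% of all tested genes were higher. Bmp2, bone morphogenetic protein 2, had 8.77, 8.71, 16.4 and 13 CPM with fat and 0.479, 0.526, 0.447 and 0.542 CPM with mammary fibroblasts, 208 against 11 counts in all. Every mammary library held at most 3 counts, and the log2 difference was 4.47 (SE 0.36, adjusted p = 5.07e-07). It averaged 15.3 CPM with lung fibroblasts and 0.335 CPM at day 0. Its level in the partners was low, 0.952 CPM in fat fibroblasts and 0.772 CPM in mammary fibroblasts. Smad7, an inhibitor of TGF-beta and BMP signalling, had 28.2, 30.9, 16.8 and 36.8 CPM with fat and 6.38, 8.24, 5.36 and 10.7 CPM with mammary fibroblasts (log2 difference 1.87, SE 0.25, adjusted p = 0.000144). Id3, a helix-loop-helix inhibitor and a known target of BMP signalling, had 93.6, 90.1, 90.6 and 116 CPM with fat and 40.8, 49.1, 42.9 and 44.2 CPM with mammary fibroblasts (log2 difference 1.14, SE 0.14, adjusted p = 8.16e-05). At day 0 Id3 averaged 191 ± 24.8 CPM (SD, n = 4), above its fat and mammary levels, and with lung fibroblasts it averaged 85.4 CPM. Smad7 averaged 10.8 CPM at day 0 and 16.3 CPM with lung fibroblasts. A link of Smad7 or Id3 to Bmp2 was not tested. Id3 was also abundant in the partners, 1166 CPM in fat and 1269 CPM in mammary fibroblasts. The measured fibroblast share would carry 16.5 CPM of Id3 with fat and 13.9 CPM with mammary fibroblasts.

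Genes of eicosanoid synthesis, breakdown and reception, by which arachidonic acid gives rise to prostanoids and leukotrienes, gave 3 higher and 0 lower of 16 tested. Among all tested genes, 1.67% were higher and 1.05% lower. Ptgs1, cyclooxygenase 1, had 364, 430, 439 and 438 CPM with fat and 169, 114, 98.7 and 176 CPM with mammary fibroblasts. Its log2 difference was 1.58 (SE 0.16, adjusted p = 5.73e-06), and both other macrophage groups lay lower than the fat group, at 222 ± 27.3 CPM with lung fibroblasts and 61.2 ± 7.54 CPM at day 0 (SD, n = 4 each). Ltc4s, leukotriene C4 synthase, averaged 130 ± 11.1 CPM with fat and 75.5 ± 23.1 CPM with mammary fibroblasts (SD, n = 4 each, adjusted p = 0.0128, and 0.0533 without mammary library 3). Tbxas1, thromboxane A synthase, averaged 616 ± 32.4 CPM with fat and 448 ± 27 CPM with mammary fibroblasts (SD, n = 4 each, adjusted p = 0.0211, and 0.137 without mammary libraries 3 and 4). Alox5ap, which presents arachidonic acid to 5-lipoxygenase, was the most abundant member that did not pass, at 925 ± 65 CPM with fat and 958 ± 94.3 CPM with mammary fibroblasts (SD, n = 4 each).

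**Figure D4:**
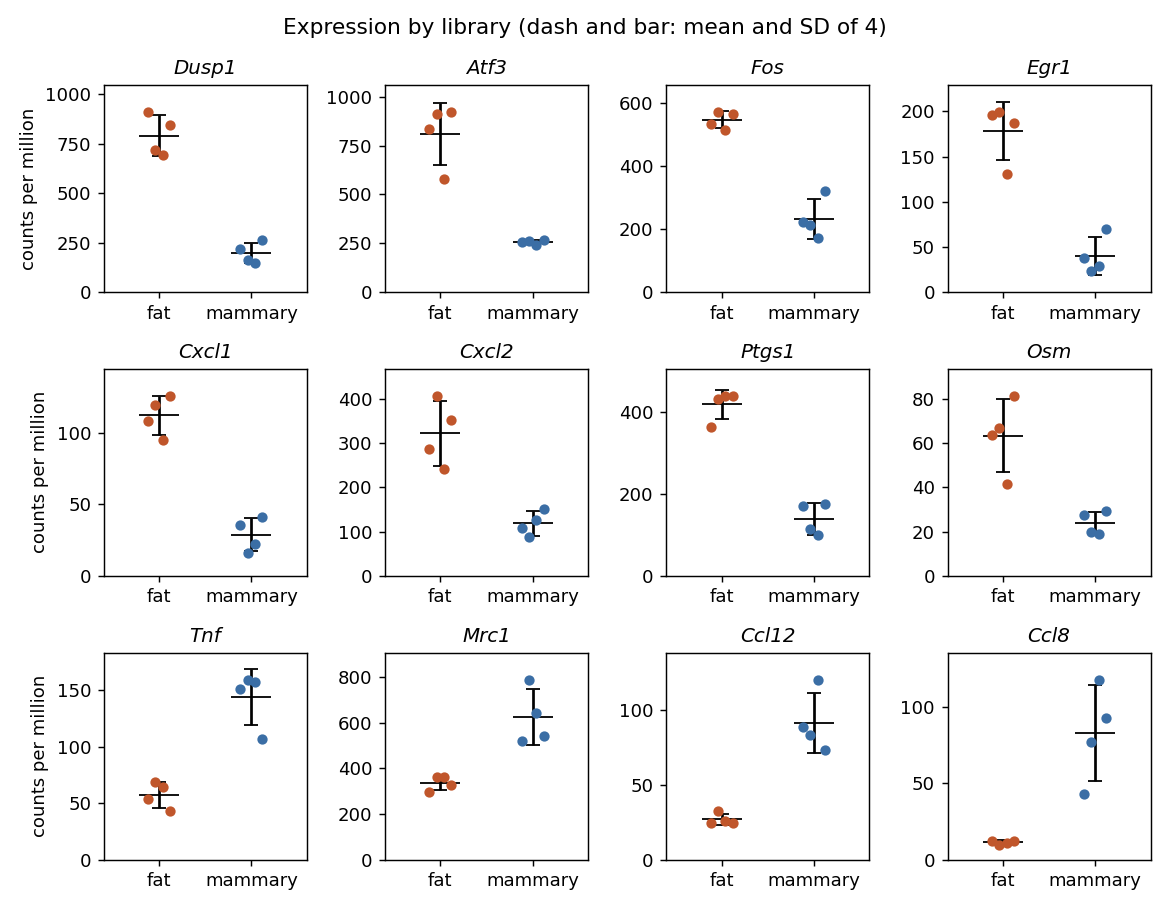
CPM in each of the 4 fat (left) and 4 mammary (right) libraries for 12 genes, on linear axes from 0, with the mean and SD. In all 12 genes the groups do not overlap; Dusp1, Atf3, Fos, Egr1, Cxcl1, Cxcl2, Ptgs1 and Osm are higher with fat and Tnf, Mrc1, Ccl12 and Ccl8 lower.

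Among the other genes with the largest positive differences and at least 20 CPM, Tspoap1, a scaffold protein that binds the mitochondrial translocator protein TSPO, had 90.2, 55, 48.8 and 81.6 CPM with fat and 4.31, 3.33, 5.58 and 11.6 CPM with mammary fibroblasts. No mammary library came near the fat ones, and the log2 difference was 3.48 (SE 0.29, adjusted p = 2.26e-06); with lung fibroblasts it averaged 86.7 CPM and at day 0 it averaged 1.65 CPM. Pram1, an adaptor protein of myeloid cells, averaged 37.4 ± 4.48 CPM with fat and 8.57 ± 3.25 CPM with mammary fibroblasts (SD, n = 4 each, adjusted p = 5.73e-06). Plppr3, a lipid phosphatase-related membrane protein, averaged 24.7 ± 3.13 CPM with fat and 6.45 ± 3.18 CPM with mammary fibroblasts (SD, n = 4 each), and its 3′ end overlaps Ptbp1 on the opposite strand.

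On the lower side, Mrc1, the mannose receptor CD206 and a marker of interleukin 4-activated macrophages, had 295, 360, 361 and 328 CPM with fat and 520, 788, 642 and 541 CPM with mammary fibroblasts (log2 difference -0.89, SE 0.16, adjusted p = 0.00372). It did not carry its list with it: of 15 tested genes of alternative activation, Mrc1 was the 1 that fell, and the 3 that rose were Socs2, a suppressor of cytokine signalling, and the immediate early genes Egr2 and Klf4. Ch25h, cholesterol 25-hydroxylase, had 358, 369, 224 and 234 CPM with fat and 907, 564, 582 and 581 CPM with mammary fibroblasts (log2 difference -1.15, SE 0.23, adjusted p = 0.0107, and 0.0539 without fat library 4). Mmp14, a membrane-bound collagenase, had 43.8, 78.6, 69.2 and 68.2 CPM with fat and 111, 141, 189 and 203 CPM with mammary fibroblasts (log2 difference -1.31, SE 0.21, adjusted p = 0.00124). Mmp14 was at 650 CPM in fat and 645 CPM in mammary fibroblast partners. Clec4n, the fungal receptor Dectin-2, the interferon-regulated gene Slfn5, the ubiquitin ligase Wwp1 and the ribosome recycling factor Abce1 also fell, by 1.38, 1.94, 1.22 and 1.10 on the log2 scale. None of these 4 passed without mammary libraries 3 and 4, where the adjusted p was 0.219, 0.187, 0.0773 and 0.242.

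Several genes that differed are far more abundant in fibroblasts. A gene was called fibroblast-rich when its mean in the co-cultured fibroblasts of the organ with the higher macrophage level, 3 libraries for fat and 5 for mammary, exceeded 5 times that macrophage level. This held for 26 of the 172 genes that rose and 23 of the 108 that fell, 17.5% of the genes that passed, against 5.77% of the genes tested. In 43 of the 49 the fibroblast partners differed in the same direction, and in 108 of the 218 other genes that the fibroblast table holds; the definition favours the same direction. Des, the muscle and pericyte filament desmin, had 21.2, 28.7, 28.7 and 23.1 CPM with fat and 0.798, 0.877, 0.67 and 1.45 CPM with mammary fibroblasts. It averaged 1483 CPM in fat and 39.8 CPM in mammary fibroblasts, and the measured share would carry 20.9 CPM with fat and 0.44 CPM with mammary fibroblasts. Mgp, matrix Gla protein, averaged 34.7 ± 8.67 CPM with fat and 5.29 ± 2.13 CPM with mammary fibroblasts (SD, n = 4 each), against 5478 CPM in fat and 160.0 CPM in mammary fibroblasts. With the share subtracted its log2 difference was -7.07 and did not pass (adjusted p = 0.2). Cck, the peptide cholecystokinin, averaged 25.2 ± 8.72 CPM with fat and 2.85 ± 1.24 CPM with mammary fibroblasts (SD, n = 4 each) and was at 497 CPM in fat and 104 CPM in mammary fibroblasts; with the share subtracted it still passed.

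The lower genes included some of the matrix. Of 18 tested collagen and matrix genes, 0 rose and 6 fell, where 1.05% of all tested genes fell. The 6 were Col1a2, Col5a1, Col6a3, Postn, Tnc and Col18a1, and the median over the list was -0.77. Without mammary libraries 3 and 4, 2 of the 18 fell, Postn among them, and the adjusted p was 0.101 for Col1a2, 0.0664 for Col5a1, 0.168 for Col6a3, 0.0817 for Tnc and 0.0737 for Col18a1. Leaving out 1 library gave between 1 (without fat library 1 or mammary library 4) and 6; 3 fell without fat library 2 or 3 or mammary library 2, and 2 without fat library 4. All but 1 of the 18 were fibroblast-rich. Col1a2, a chain of type I collagen, averaged 70.1 CPM with fat and 136 CPM with mammary fibroblasts, and 5041 CPM in fat and 10701 CPM in mammary fibroblasts. Ly6a, the stem cell antigen Sca-1, had 16.2, 6.88, 12.3 and 6.13 CPM with fat and 67, 33.5, 51.4 and 29.6 CPM with mammary fibroblasts, and 120 CPM in fat and 2338 CPM in mammary fibroblasts. Ly6a and Cd248, a marker of perivascular stroma, did not pass with the share subtracted or without mammary libraries 3 and 4 (adjusted p = 0.0721 for Ly6a and 0.2 for Cd248 without those libraries). Timp3, a metalloproteinase inhibitor, ran the other way from its partners: it averaged 7.47 CPM with fat and 24.3 CPM with mammary fibroblasts, while the fibroblasts held 1385 CPM in fat and 518 CPM in mammary cultures. The measured share would carry 19.5 CPM with fat, above the level measured there, and Timp3 did not pass with the share subtracted (adjusted p = 0.0521), without mammary libraries 3 and 4 (0.0721), or without fat library 1 or 4 (up to 0.0761). Of the mesothelial markers, 5 were measured and 0 reached the level for testing. They summed to between 2.59 and 8.77 CPM with fat and between 0 and 0.181 CPM with mammary fibroblasts. With lung fibroblasts they summed to between 3.26 and 18.9 CPM. The part of partner RNA in any single difference was not tested beyond the subtraction given here.

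**Figure D5:**
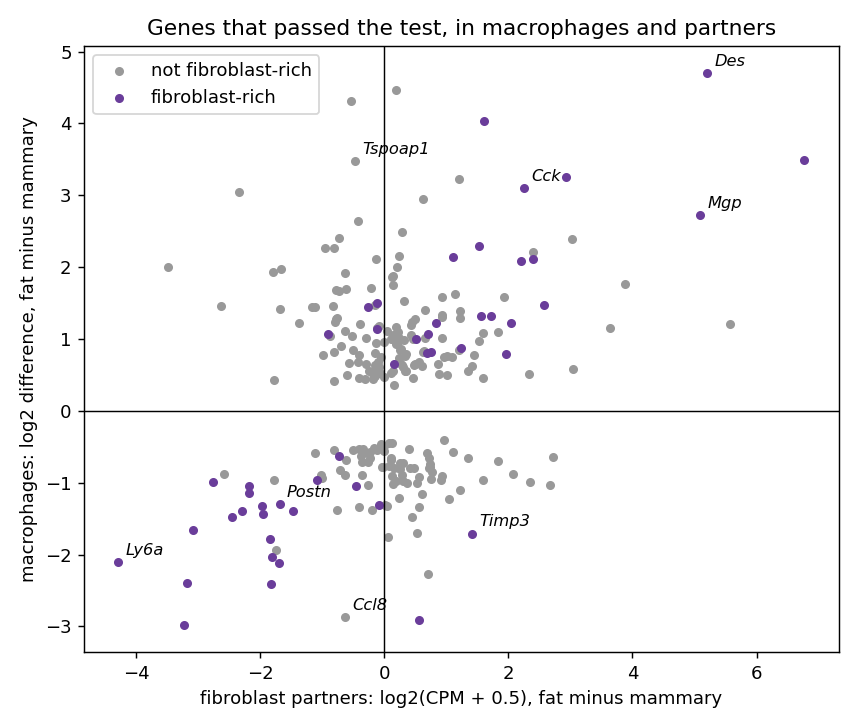
For the 267 genes that passed and that the fibroblast table holds, the log2 difference in macrophages (vertical) against the difference between fat and mammary co-cultured fibroblasts (horizontal, log2 of CPM + 0.5). Of the 49 fibroblast-rich genes, 43 lie above 0 or below 0 on both axes, Des at 4.70 and Mgp at 2.73 on the vertical axis among them.

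In the lists that follow, 1 to 3 members passed, where 2.72% of all genes tested did. Interferon-stimulated genes gave 0 higher and 2 lower of 35 tested, with a median log2 difference of -0.20; the 2 were Parp14 (-0.71, adjusted p = 0.00413) and Rtp4 (-0.90, adjusted p = 0.028). Rtp4 lost its call in 5 of the 8 fits that left out 1 library (without fat library 1, 3 or 4 or mammary library 2 or 3), with adjusted p up to 0.107, and its fat and mammary values overlapped. Genes of tissue-resident macrophages gave 3 higher (Cx3cr1 and Id3 among them) and 0 lower of 21, and monocyte genes 2 higher (Prtn3 and Nr4a1) and 0 lower of 15. Lysosomal genes gave 2 higher of 35, Ctsh among them (adjusted p = 0.0318, and 0.122 without mammary libraries 3 and 4), and phagocytosis and complement genes 2 higher of 27, C5ar1 among them. Lineage transcription factors gave 1 higher, Irf5 at 0.50 (adjusted p = 0.0147, and 0.167 without mammary libraries 3 and 4), and 1 lower, Tfec at -0.85, of 26 tested. Of 17 pattern recognition receptors 1 fell, Clec4n, and of 16 matrix proteases and inhibitors 2 fell, Mmp14 and Timp3. Of 32 cell cycle genes 1 rose, the chromatin protein Hmgb2 (log2 difference 1.47, adjusted p = 0.000761). Of 18 integrins and adhesion molecules 1 rose, Adgre5, also called CD97 (0.75, adjusted p = 0.0211, and 0.122 without mammary libraries 3 and 4). The fat and mammary values of Irf5 and those of Adgre5 overlapped. The 3′ ends of Cx3cr1, Irf5, Adgre5, Ltc4s, Hspa1a, Col18a1, Timp3, Wwp1 and Des also overlap an annotated gene on the opposite strand. So do those of Ccl2, Jund, Alox5ap and Adam8, which did not pass. Counts of all these genes are uncertain if strand was not used. The 3′ ends of Pram1, Fpr2 and Itgam overlap an annotated gene on the same strand, which reading the strand would not separate.

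In edgeR, 0 genes passed in either direction among 12 MHC class II, 17 MHC class I, 27 lipid handling, 22 cholesterol synthesis, 14 fatty acid synthesis, 27 glycolysis and hypoxia, 35 oxidative phosphorylation, 17 iron and heme, and 13 aryl hydrocarbon receptor and NRF2 genes. DESeq2 called 1 MHC class I gene, 1 of glycolysis and hypoxia and 2 of iron and heme, and 0 in the other 6 lists. Their members with an unadjusted p under 0.05 numbered 1 for MHC class II, 3 for MHC class I, 8 for lipid handling, 4 for fatty acid synthesis, 6 for glycolysis and hypoxia, 6 for oxidative phosphorylation and 4 for iron and heme. There were 0 such members for cholesterol synthesis and 0 for the aryl hydrocarbon receptor list. Median log2 differences of these 9 lists lay between -0.17 for oxidative phosphorylation and 0.15 for lipid handling. Apoe, the main lipid carrier of macrophages, averaged 34358 CPM with fat and 30040.2 CPM with mammary fibroblasts and did not pass (adjusted p = 0.711). Spp1, osteopontin, averaged 10779.8 CPM with fat and 12263 CPM with mammary fibroblasts (adjusted p = 0.648).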

How the data were processed

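RNA of sorted macrophages and fibroblasts was sequenced as 3′ mRNA libraries. Per the submitters' processing notes, bcl2fastq, STAR 2.4.2a and HTSeq were used with the mm10 build. Which gene annotation was counted, whether strand was used and whether molecular identifiers were read is not given in the sources used here. Tables, as deposited, hold whole-number read counts per gene made by the authors, 11965 genes for macrophages and 14028 for fibroblasts, and no macrophage gene has a highest count under 6. The authors' normalized tables were not used. Groups follow the sample labels.

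Counts of all 16 macrophage libraries were fitted with edgeR 4.0.16 in R 4.3.3: TMM scaling, filterByExpr with a minimum count of 10, 1 coefficient per group and a quasi-likelihood F test of fat minus mammary, adjusted by Benjamini-Hochberg over the 10295 genes tested. A gene passed at an adjusted p under 0.05. SE is the log2 difference divided by the square root of F. CPM use TMM library sizes; log2 levels add 0.5. The common dispersion, as its square root, was 16.9%. DESeq2 1.42.0, other scalings and filters, the replicate block, subtraction of the fibroblast share and leaving out libraries were alternatives. The share is the median over fibroblast markers of CPM above the day 0 mean divided by the mean of the co-cultured fibroblasts.

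The members and gene lists were chosen with earlier results of these data known. Genes named first were the 10 largest differences in each direction with at least 20 CPM, no overlap and no fibroblast-rich level, 4 fibroblast-rich genes in each direction, and per list up to 3 that passed and the most abundant that did not. Other genes named from lists were chosen after their values were seen. A few genes of the lists are counted but not reported by name here. Positions come from GENCODE on GRCm38 and promoters from RefSeq on GRCm38.p6. Replicates are separate samples by label; p-values cover the spread between them.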

Additional observations from a re-analysis of the deposited data

Results flagged for a closer look

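Among the 93 genes named by the rule, each looked at in both groups of 4 libraries, 16 of 186 sets held 1 library far from the other 3, by a criterion that chance alone meets in about 1 set in 20. Fat library 2 accounted for 6. It held 291 CPM of C5ar1 (361 to 368 CPM in the other fat libraries), 32.6 CPM of Ccl12 (24.5 to 25.8), 8390 CPM of Ctss (6350 to 6690), 19400 CPM of Fth1 (17700 to 17900), 283 CPM of Irf5 (378 to 384) and 8.02 CPM of Prtn3 (4.98 to 5.43). The other fat values were 361 CPM of Cebpb in library 3 (413 to 421), 116 CPM of Id3 in library 4 (90.1 to 93.6) and 364 CPM of Ptgs1 in library 1 (430 to 439).

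In the mammary group, library 4 held 2740 CPM of Calr (3170 to 3230 in the other mammary libraries), 18800 CPM of Fth1 (21500 to 22000) and 107 CPM of Tnf (151 to 159). Library 1 held 2870 CPM of Adam8 (2260 to 2360) and 907 CPM of Ch25h (564 to 582). Library 2 held 720 CPM of Cd14 (1140 to 1200), and library 3 held 4890 CPM of Tyrobp (3980 to 4020). None of the flagged values of Ccl12, Id3, Ptgs1, Tnf, C5ar1, Ch25h or Prtn3 reached into the range of the other group. That of Irf5 did: 283 CPM in fat library 2 lay within the mammary range of 237 to 287 CPM.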

How the results depend on the processing

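The count of 280 genes was 281 with RLE scaling, 275 with upper-quartile scaling, 311 without the filter on low counts, 204 with a minimum count of 50, 255 with only the 8 libraries fitted and 253 with the fibroblast share subtracted. DESeq2 called 223 higher and 169 lower, and 277 of the 280 were among them. With a log2 difference of at least 1 in size added as a condition, 143 genes passed, 100 higher and 43 lower. Without mammary libraries 3 and 4, a choice made after seeing the data, 150 passed, 111 higher and 39 lower. With fat library 2 left out too, 149 passed, 104 higher and 45 lower, and 114 were among the 280. Leaving out 1 library gave 145 to 364 genes, 111 to 226 higher and 34 to 138 lower. The labels do not say whether same-numbered libraries were paired. With group means removed, same-numbered libraries correlated at 0.173, -0.0411, -0.017 and 0.0554, and differently numbered ones at -0.309 to 0.248. So few and scattered values cannot decide whether the numbers pair the libraries. With the replicate block 279 genes passed, 166 higher and 113 lower. Mgp turned to -7.07 with the fibroblast share subtracted (adjusted p = 0.2), since the share multiplied by its fibroblast level, 77.3 CPM with fat, exceeds its macrophage level. Of 60 genes named by the rule that passed, 36 kept their call without any 1 library, 3 lost it once and 21 lost it in 2 or more of the 8 fits. Ly6a lost it in 7, and Casp4, Ccr1, Cd248, Clec4n, Ctsh, Cx3cr1 and Hspb1 in 6 each. Nr4a1 lost it with only the 8 libraries fitted (adjusted p = 0.0956). With 4 libraries a group, differences in genes of a few CPM rest on few counts and were often not detectable.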

Other observations

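Several genes that no list held were among those with the largest differences; they were picked after their values were seen. Camkk1, a calcium-dependent kinase that activates CaMKI, averaged 15.9 CPM with fat and 0.759 CPM with mammary fibroblasts, a log2 difference of 4.31 (adjusted p = 6.43e-07, and 5.67e-05 without mammary libraries 3 and 4). The linker histone H1f4 averaged 17.1 CPM with fat and 4.49 CPM with mammary fibroblasts, and H1f3 and H1f5 were also higher with fat, at log2 differences of 2.49 and 1.86; without mammary libraries 3 and 4, H1f3 and H1f5 passed and H1f4 did not (adjusted p = 0.143). Tnfsf9, the ligand of the costimulatory receptor 4-1BB, averaged 44.8 CPM with fat and 90.7 CPM with mammary fibroblasts (log2 difference -1.02, adjusted p = 0.00273), and Siglec1, the sialic acid receptor CD169, averaged 49.1 CPM with fat and 76.1 CPM with mammary fibroblasts (log2 difference -0.63, adjusted p = 0.00217). The proteasome subunits Psma1, Psma2, Psma6 and Psmd10 were lower with fat fibroblasts, by 0.96 for Psma1 to 0.59 for Psmd10 on the log2 scale. None of these 4 passed without mammary libraries 3 and 4, where the adjusted p was 0.106 for Psma1, 0.15 for Psma2, 0.312 for Psma6 and 0.33 for Psmd10.

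The 46 genes in which mammary libraries 3 and 4 fell far below the other 6 libraries included Atp6ap2, a subunit linked to the proton pump, with 249, 285, 261 and 231 CPM in fat libraries and 242, 227, 29 and 11.4 CPM in mammary libraries. Picalm, a clathrin assembly protein, had 252, 159, 265 and 255 CPM in fat libraries and 292, 222, 23.5 and 22 CPM in mammary libraries. Abi1, an actin regulator, had 83.7, 47, 92.5 and 88.9 CPM in fat libraries and 75.8, 52.1, 4.24 and 1.81 CPM in mammary libraries. With lung fibroblasts, library 1 was the lowest of 4 for each of the 3, at 140 CPM of Atp6ap2, 122 CPM of Picalm and 36.2 CPM of Abi1.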
